A study of Mus musculus with 12 samples.

Results

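The interferon-stimulated and guanylate-binding genes are a set of 45 genes, chosen by symbol, out of 27321 genes listed in both environments of an RNA-seq study of primary mouse brain endothelial cells (BECs). All 45 were listed in both environments. The rule names genes and applies no threshold to a measured value, but the set was chosen with earlier results of these data known.

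RNA came from primary cultures of brain microvascular endothelium of Cort+/+ mice, or of Cort-/- mice, which lack the neuropeptide cortistatin in the whole body, both on a C57BL/6J background. Cultures were kept for 24 h under normoxia with glucose (NX/NG, 21% O2 and 5.5 mM glucose), or were deprived of glucose, serum and most oxygen (1% O2) for 4 h and returned to normal conditions for 20 h (OGD-R, oxygen-glucose deprivation and reoxygenation, an in vitro model of ischemic injury). Every replicate was a pool from 3 mice, and the p-values below measure the spread between such pools. Under either condition 3 Cort+/+ and 2 Cort-/- replicates could be analysed. For Cort-/- these were replicates 1 and 2 under NX/NG and 1 and 3 after OGD-R, the remaining sample of each being not used here.

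Interferons reach the cell through receptors at its surface. Type I interferons signal through JAK1 and TYK2 to a complex that holds STAT2 and IRF9 and binds the interferon-stimulated response element (ISRE), whereas interferon gamma acts through the gamma-activated site (GAS). The genes so induced make proteins that sense foreign RNA and DNA, block viral entry and replication, conjugate ISG15 to other proteins, or, as the guanylate-binding proteins (GBPs) and immunity-related GTPases (IRGs) do, attack the membranes around intracellular pathogens. In brain endothelium, type I interferon signalling is known to strengthen the barrier.

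The 10 libraries held 12386048 to 12390428 reads on genes. Cort itself, the targeted gene, was at 0 RPKM (reads per kilobase of the gene, relative to the size of the library) in all 4 Cort-/- libraries, at 0.241, 0.112 and 0.128 RPKM in Cort+/+ NX/NG, and at 0 in Cort+/+ OGD-R replicates 1 and 2 and 0.124 RPKM in replicate 3, so its level is close to the detection limit in either genotype. The summed RPKM of 7 endothelial markers lay between 804 and 1244 in every library, led by Cdh5. Reads on ribosomal RNA were 7.64% to 15.8% of the total in 8 libraries, but 0.0775% in the first Cort+/+ replicate after OGD-R and 0.0951% in Cort-/- OGD-R replicate 3. The libraries were made from bulk cultures, in which fewer cells of a type and less RNA per cell cannot be told apart.

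Where the genes lie and the letters before their start sites were taken from reference annotation. On GRCm38 (GENCODE vM21), 29 of the 45 genes stood in 11 groups of neighbours with gaps of at most 1 Mb. Gbp5, Gbp7, Gbp3 and Gbp2 lay together at chr3:142493978-142638008, the IRG genes Irgm1, Tgtp1, Tgtp2 and Ifi47 at chr11:48861968-49096974, and Igtp with Irgm2 at chr11:58199556-58222782. The 3 IFIT genes were neighbours at chr19:34550694-34650009. Rsad2, which encodes viperin, adjoined Cmpk2 at chr12:26442746-26479837.

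RefSeq start-site windows (GRCm38.p6, 250 bases before to 50 bases after each start) were found for 33 of the 45 genes. The ISRE core was searched as GAAANNGAAA and, for the other strand, TTTCNNTTTC, and the GAS as TTCNNNGAA, which reads the same on both strands. An ISRE core was present in a window of 20 of the 33 genes and in 3.44% of all 32851 windows, and a GAS in 12 of the 33 and in 8.30% of all windows. Both kinds were present for 9 of the 33 genes, against 0.454% of all windows. All 4 GBPs with a window held an ISRE core, as did 5 of 6 IRGs. Of 30 ISRE matches, 23 began within the 150 bases before the start site, and 2 overlapped a GAS match. A match describes the letters only.

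The bases before the start sites of Isg15, Gbp5 and Irf1 are shown whole, because Isg15 held 3 overlapping ISRE cores, Gbp5 an ISRE core and 2 GAS matches, and Irf1 a GAS match alone. They lie at chr4:156200819-156201068 on the minus strand, chr3:142496684-142496933 on the plus strand and chr11:53769764-53770013 on the plus strand. Each runs 5′ to 3′ in the direction of transcription and ends at the base before the start site, with the matched letters in capitals.
Isg15: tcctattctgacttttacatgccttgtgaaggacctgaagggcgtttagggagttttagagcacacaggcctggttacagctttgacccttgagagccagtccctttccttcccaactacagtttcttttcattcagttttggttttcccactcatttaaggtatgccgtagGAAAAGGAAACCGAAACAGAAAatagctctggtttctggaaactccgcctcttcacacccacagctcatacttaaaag
Gbp5: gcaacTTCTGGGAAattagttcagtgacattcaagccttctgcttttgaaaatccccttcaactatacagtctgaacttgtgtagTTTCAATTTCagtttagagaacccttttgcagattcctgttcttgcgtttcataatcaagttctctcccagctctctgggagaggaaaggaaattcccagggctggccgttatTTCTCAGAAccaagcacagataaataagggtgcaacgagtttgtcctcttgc
Irf1: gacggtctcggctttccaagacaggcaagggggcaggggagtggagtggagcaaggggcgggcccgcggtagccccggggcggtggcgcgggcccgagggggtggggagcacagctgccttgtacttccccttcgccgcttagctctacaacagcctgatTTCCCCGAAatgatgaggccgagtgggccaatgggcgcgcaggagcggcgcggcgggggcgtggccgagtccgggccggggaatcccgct

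Short windows around the ISRE core of 8 further genes are shown, taken from antiviral genes, GBPs and IRGs that held a match. The matched letters are alike because of the search itself, in which only the letters at N could differ. Oas1a is read from chr5:120907526-120907560 on the minus strand, Ifit3 from chr19:34583358-34583397 on the plus strand, Ifitm2 from chr7:140955983-140956022 on the minus strand and Gbp2 from chr3:142620589-142620628 on the plus strand. Gbp3 is read from chr3:142559984-142560023 on the plus strand, Irgm1 from chr11:48871426-48871465 on the minus strand, Tgtp1 from chr11:48992299-48992338 on the minus strand and Tgtp2 from chr11:49064258-49064297 on the minus strand. Capitals again mark the ISRE core and, in Tgtp1 and Tgtp2, a GAS match just before it.
Oas1a: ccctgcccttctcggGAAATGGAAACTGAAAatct
Ifit3: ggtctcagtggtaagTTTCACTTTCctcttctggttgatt
Ifitm2: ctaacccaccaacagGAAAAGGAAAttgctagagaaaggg
Gbp2: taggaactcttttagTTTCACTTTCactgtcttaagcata
Gbp3: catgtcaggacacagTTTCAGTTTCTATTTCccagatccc
Irgm1: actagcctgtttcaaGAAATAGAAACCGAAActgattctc
Tgtp1: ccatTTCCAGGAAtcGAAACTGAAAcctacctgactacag
Tgtp2: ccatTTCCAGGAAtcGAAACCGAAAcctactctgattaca

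**Figure D1:**
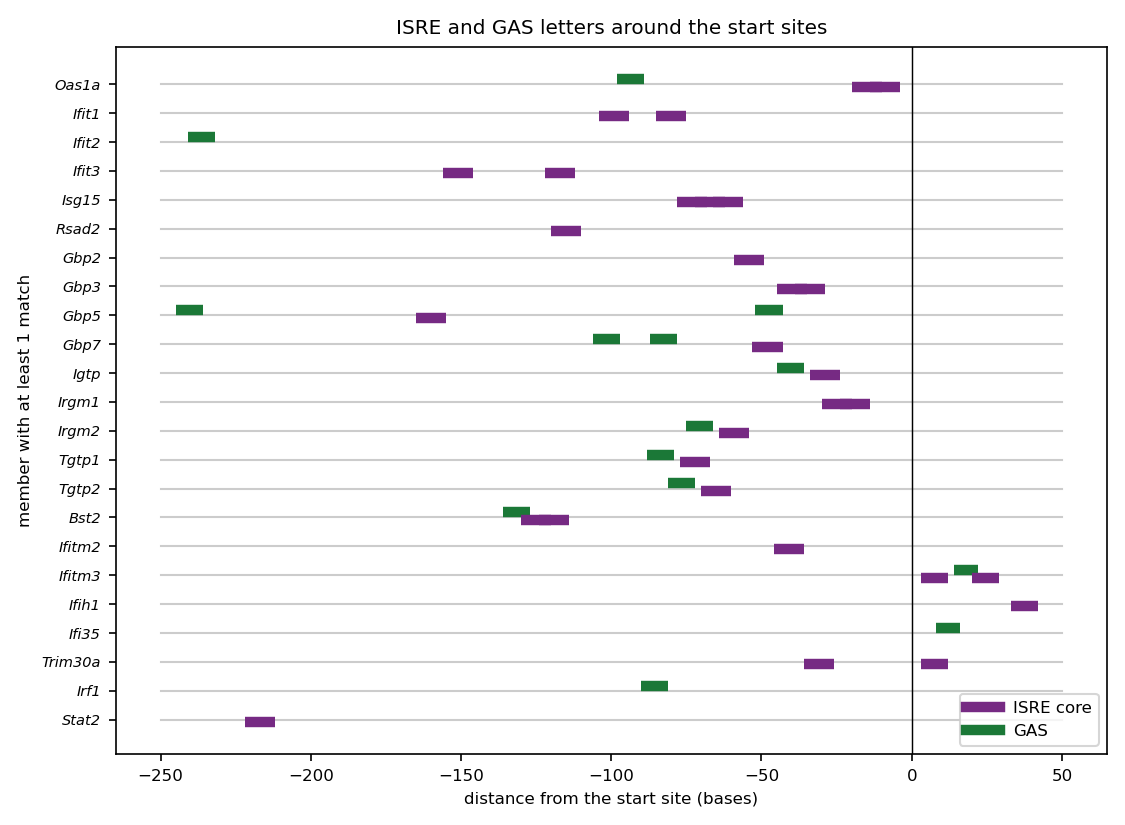
Positions of ISRE cores (purple) and GAS matches (green) in the windows of the 23 genes with at least 1 match, as distance in bases from the start site, for each gene on a line of its own. Of 30 ISRE matches, 23 begin within 150 bases before the start, and Isg15 and Oas1a, for example, hold overlapping cores.

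The members covered a wide range of levels. By mean deposited RPKM over the 10 libraries, 3 genes were at 100 RPKM or more, 4 between 10 and 100, 26 between 1 and 10, and 12 below 1. Their median was 2.13 RPKM, against 1.04 RPKM over all genes in both tables. The deposited values of each environment were scaled by the authors on their own, so differences between environments are given further on after joint scaling. Levels compared between genes are per length, in RPKM.

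**Figure D2:**
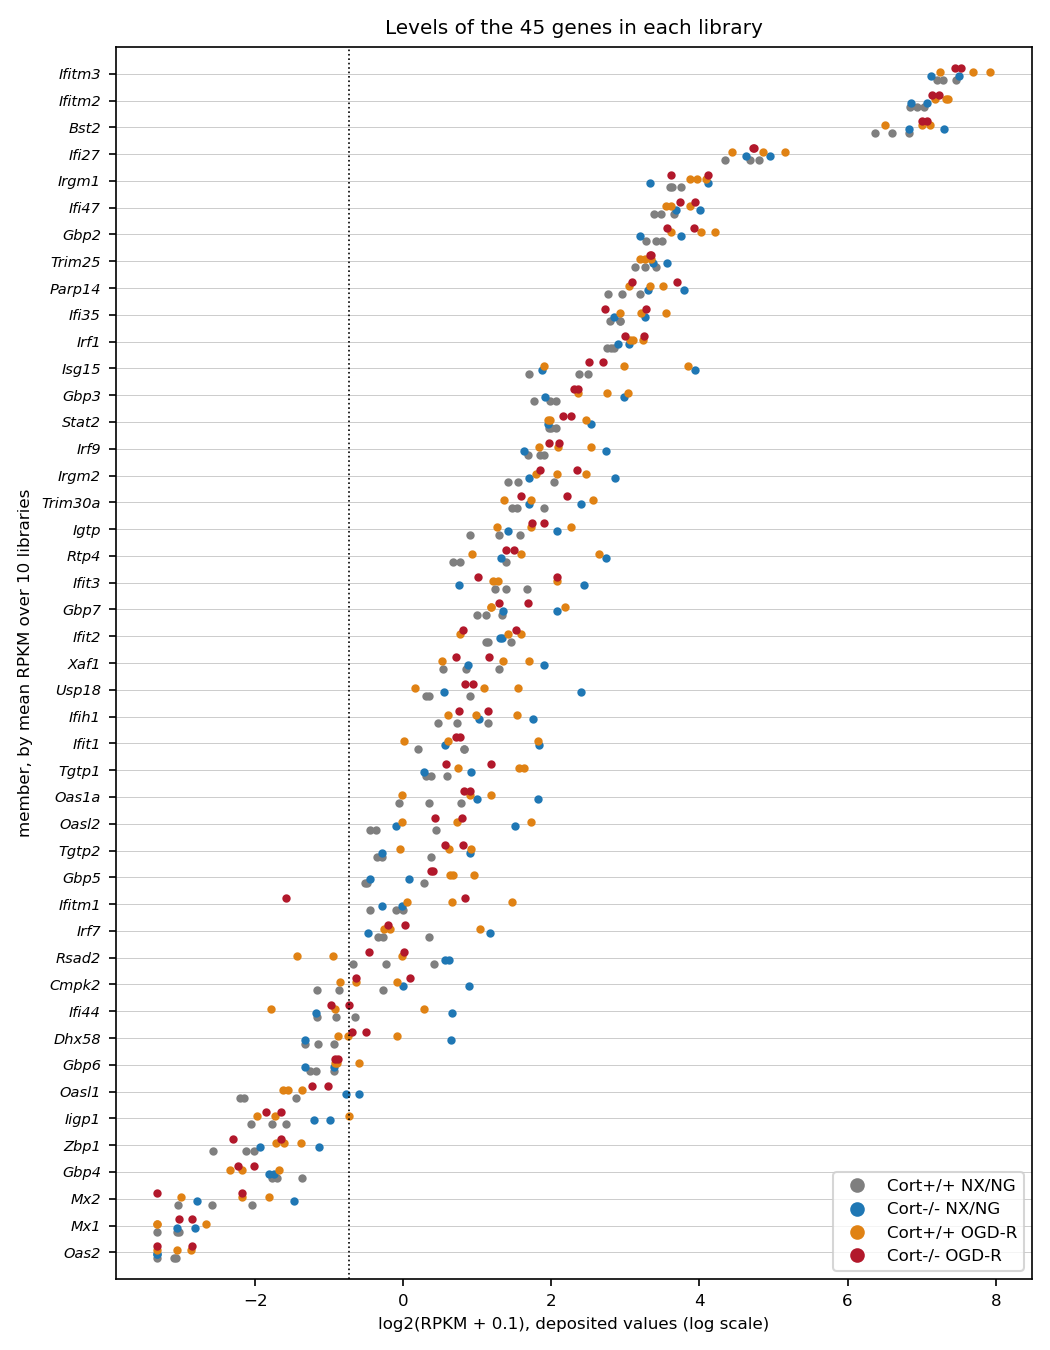
Deposited values of the 45 genes in each of the 10 libraries as log2(RPKM + 0.1), a log scale, ordered by mean RPKM, with each point a library coloured by its group. Ifitm3, Ifitm2 and Bst2 stand above the others, and the dotted line marks 0.5 RPKM, the mean below which a gene was not tested.

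The highest were membrane proteins that restrict viral entry or release. Ifitm3, which blocks the fusion of enveloped viruses in endosomes, was at 147, 156 and 177 RPKM in Cort+/+ NX/NG, 139.8 and 181 in Cort-/- NX/NG, 151, 207 and 243 in Cort+/+ OGD-R, and 175 and 184 in Cort-/- OGD-R. Ifitm2, its neighbour in the genome, was at 115, 123 and 131 RPKM in Cort+/+ NX/NG and 115 and 135 in Cort-/- NX/NG. After OGD-R it was at 145, 163 and 161 RPKM in Cort+/+ and 140.3 and 151 in Cort-/-. Ifitm2 varied little between libraries, whereas Ifitm1, of the same family, was low and uneven. Bst2 encodes tetherin, which holds budding virus particles at the cell surface, and was at 82.8, 97.1 and 114 RPKM in Cort+/+ NX/NG and 113 and 158 in Cort-/- NX/NG. After OGD-R it was at 90.9, 128 and 139 RPKM in Cort+/+ and 134 and 128 in Cort-/-.

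Irgm1, an IRG that regulates autophagy and the other IRGs, had the highest mean level of its class, 14.1 RPKM, and Gbp2 that of the GBPs, 12.7 RPKM. Trim25, a ubiquitin ligase that activates the RNA sensor RIG-I, led the sensors at 9.94 RPKM, and Irf1, a transcription factor downstream of interferon gamma, led the transcription factors at 7.95 RPKM. Ifi27, which encodes a small membrane protein, reached a mean of 26.8 RPKM. It was at 25.5, 20.2 and 27.8 RPKM in Cort+/+ NX/NG, 24.7 and 30.9 in Cort-/- NX/NG, 21.7, 29.0 and 35.5 in Cort+/+ OGD-R, and 26.4 and 26.3 in Cort-/- OGD-R. The remaining classes were led by Isg15 at 7.02 RPKM, Ifit3 at 2.94, Oas1a at 1.72 and Rsad2 at 0.844.

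Several well-known antiviral genes were close to absent. Oas2, an oligoadenylate synthetase, had 7 reads over all 10 libraries, Mx1 had 11 and Mx2, of the same dynamin-like family, had 45. Zbp1, a sensor of Z-form nucleic acids, had 83 reads. Together with Gbp4, Gbp6, Oasl1 and Iigp1, these 8 genes had a mean under 0.5 RPKM and were not tested, and Dhx58 also stayed below that mean in the comparison of environments in Cort+/+. The tests below therefore cover 37 or 36 of the 45.

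Some of these genes have near-identical copies, and reads could have been split between them by a rule that is not given in the sources used here. Of the 40-base words in the transcripts of Tgtp1, 81.4% also occurred in Tgtp2, and 87.6% of those of Tgtp2 occurred in Tgtp1, so their separate values are uncertain. Oas1a shared 63.2% of its words with Oas1g, Ifit3 56.2% with Ifit3b, Ifitm2 37.2% with Gm45717 and Gbp6 66.5% with Gm43302. For 19 of the 45 genes less than 1% of the words were shared.

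Within the groups, the members varied more between libraries than most genes. The SD between libraries of a group on the log2 scale, pooled over the 4 groups with 6 degrees of freedom, had a median of 0.41 over 37 members and 0.17 over all 15714 genes of the same minimum level. Among genes of 1 to 10 RPKM the medians were 0.44 over 26 members and 0.17 over 9066 genes. Isg15, a ubiquitin-like modifier, had the highest SD, 0.86, followed by Ifitm1 at 0.82 and Ifi44 at 0.82. By contrast Irf1, Ifitm2 and Trim25 had SDs of 0.10, 0.11 and 0.11. Class medians ran from 0.26 in the membrane restriction factors to 0.78 in Isg15 and its protease Usp18.

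The members lay high or low together by library. Cort-/- NX/NG replicate 2 was the highest of the 5 NX/NG libraries in 34 of 37 members, against 24.5% of all genes tested. Cort+/+ OGD-R replicate 3 was the highest of the 5 OGD-R libraries in 28 of 37 members, against 17.6% of all genes tested. Of interferon-stimulated genes outside the set, listed by general knowledge, Cort-/- NX/NG replicate 2 was the highest in 29 of 34 and Cort+/+ OGD-R replicate 3 in 23 of 33. The other Cort-/- NX/NG library, replicate 1, was the highest in 0 of 37 members.

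Isg15 was at 3.13, 5.09 and 5.55 RPKM in Cort+/+ NX/NG and at 3.57 and 15.2 RPKM in Cort-/- NX/NG. After OGD-R it was at 3.63, 7.81 and 14.3 RPKM in Cort+/+ and at 5.58 and 6.36 RPKM in Cort-/-. Cort-/- replicate 2 thus stood above the other NX/NG libraries, and the other Cort-/- NX/NG library lay within the range of Cort+/+. In Cort+/+ OGD-R the libraries were spread stepwise, with replicate 1 low and replicate 3 high. Usp18, which removes ISG15 from proteins and damps the type I receptor, was at 1.14, 1.17 and 1.77 RPKM in Cort+/+ NX/NG and at 1.36 and 5.19 RPKM in Cort-/- NX/NG. Irf7, the factor that amplifies type I interferon production, was at 0.691, 0.726 and 1.17 RPKM in Cort+/+ NX/NG and at 0.622 and 2.15 RPKM in Cort-/- NX/NG. For both genes replicate 2 was again the highest NX/NG library, and Irf7 in the other Cort-/- library lay below the Cort+/+ range.

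Between the Cort-/- NX/NG libraries, replicate 2 exceeded replicate 1 by 4.26-fold for Isg15 (95% exact interval 2.87 to 6.52, for counting error only). The ratio was 4.94 for Dhx58, a helicase that regulates RNA sensing (2.63 to 10.1), 4.30 for Ifi44 (2.79 to 6.86) and 3.45 for Irf7 (2.27 to 5.41). It was 1.11 for Irf1 (0.961 to 1.28) and 0.988 for Ifit2 (0.759 to 1.29), so these libraries did not differ in Irf1 or Ifit2 beyond counting error. Over 42 members with at least 20 reads in the pair, the median ratio was 1.63 and 15 were at 2 or more, against a median of 0.999 and 1.54% at 2 or more over 15318 genes. The ratio was at least 2 for 2 of 4 transcription factors, both of Isg15 and Usp18, and 2 of 3 IFIT genes, and for 1 of 6 GBPs and 0 of 4 membrane restriction factors.

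Markers of other cell types were summed in the same libraries. Cort-/- NX/NG replicate 2 had the lowest sum of 5 fibroblast markers of all 10 libraries, 62.8 RPKM, and Cort+/+ OGD-R replicate 3 the lowest of its group, 169 RPKM against 245 and 279. The latter also had the lowest pericyte sum of its group, 17.4 RPKM against 19.6 and 22.9, and the lowest epithelial sum, 1.43 RPKM. Both libraries had the highest endothelial sum of their group, 1167 and 1042 RPKM. The highest of all was 1244 RPKM in Cort-/- OGD-R replicate 1, where the members had a median log2 deviation of 0.03 from their means. Cort-/- NX/NG replicate 2 had higher pericyte and epithelial sums than replicate 1, 10.2 against 7.59 and 13.7 against 4.49 RPKM. Col1a1 was the largest fibroblast term in every library, whereas Pdgfra was highest in Cort-/- NX/NG replicate 2, at 0.706 RPKM. The part of these sums in the levels of the members was not tested. The 10 macrophage and microglial markers summed to 8.49 RPKM in Cort-/- NX/NG replicate 2 and 7.37 in replicate 1, below 13.5 to 14.9 in Cort+/+ NX/NG, and to 15.3 RPKM in Cort+/+ OGD-R replicate 3, where the OGD-R range was 10.6 to 19.9. Under OGD-R 9 of the 10 were listed. The largest term in every library was Tmem119, at 2.73 and 4.01 RPKM in Cort-/- NX/NG and 9.79 to 11.1 in Cort+/+ NX/NG. Cd68 went the other way, at 1.997 and 2.19 RPKM in Cort-/- NX/NG and at most 1.57 in Cort+/+ NX/NG. Of the 4 markers of this list tested between genotypes under NX/NG, 2 were higher and 2 lower in Cort-/-. The lower sum thus does not describe the list as a whole. Ptprc, which encodes CD45, was at 0.0320 RPKM or less and P2ry12 at 0.0897 or less. The T and NK cell markers, of which 4 of 6 were listed in each environment, summed to at most 1.02 RPKM. The 5 epithelial markers summed to 13.7 RPKM in Cort-/- NX/NG replicate 2, against 49.97 in Cort+/+ NX/NG replicate 2. Of 21 interferon genes, 4 were listed under NX/NG and 8 under OGD-R, with at most 2 reads in any library, which is under the limit that a count of 0 allows (3 reads).

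**Figure D3:**
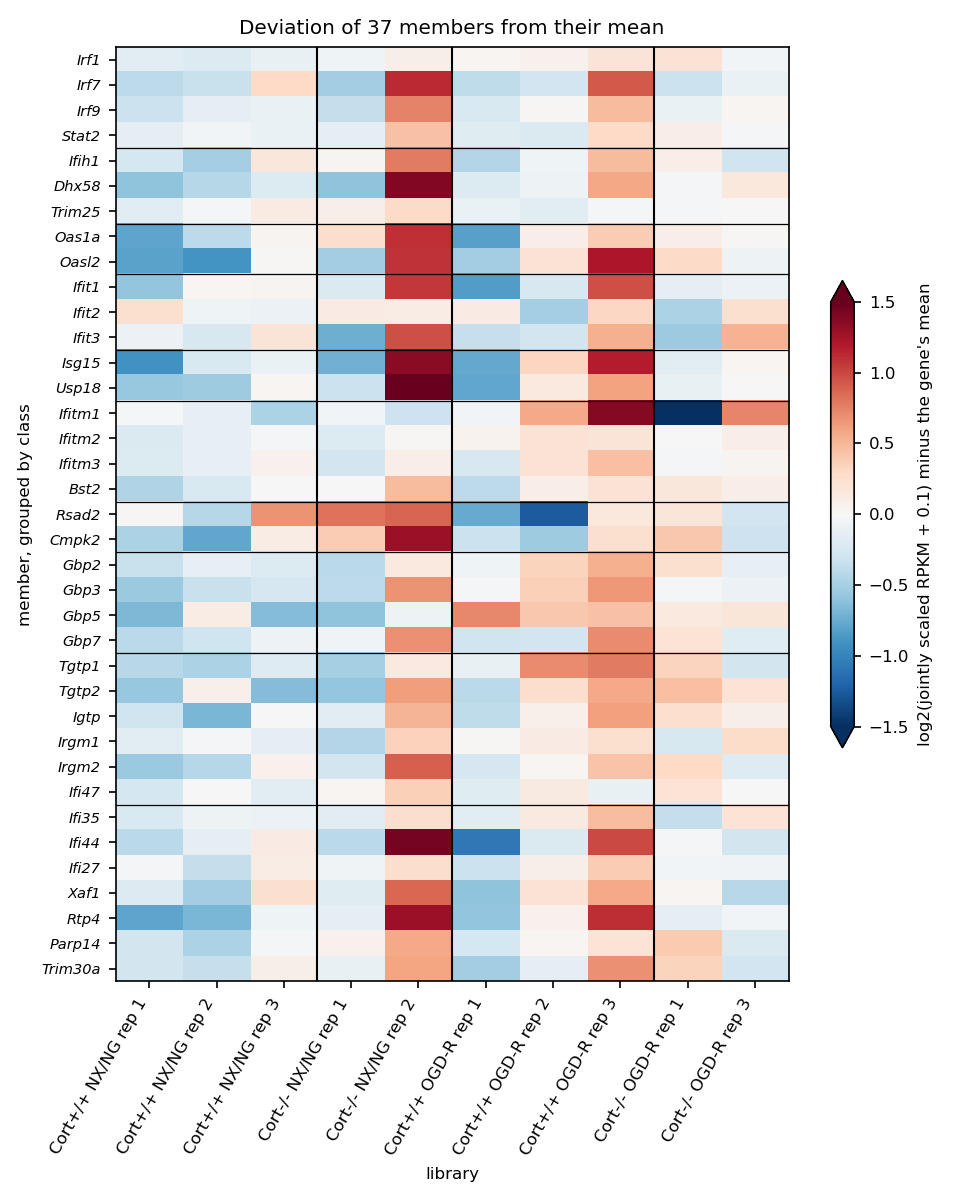
Heatmap of 37 members (rows, grouped by class) in 10 libraries (columns, grouped by genotype and environment), coloured by the deviation of log2(jointly scaled RPKM + 0.1) from the mean of the gene. Replicate 2 of Cort-/- NX/NG and replicate 3 of Cort+/+ OGD-R are red in most rows, 35 of 37 members lying above their mean in each.

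**Figure D4:**
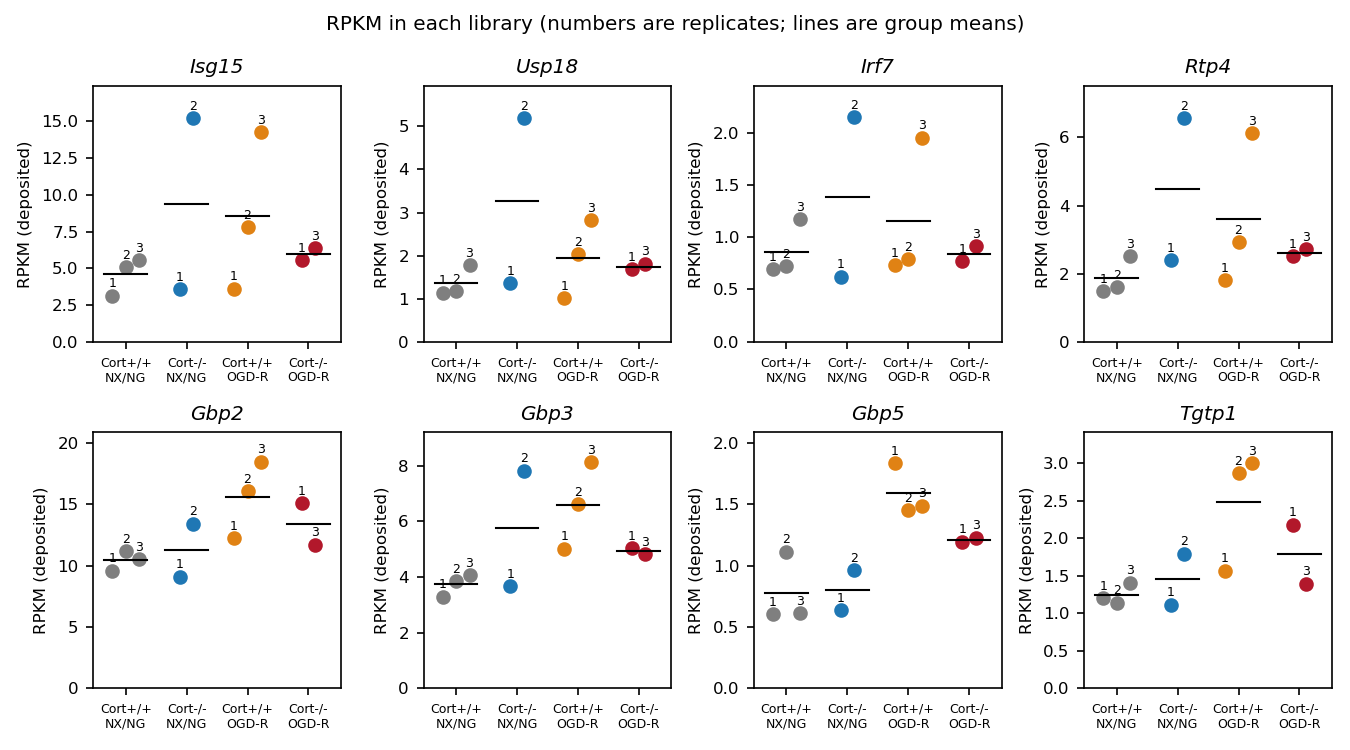
Deposited RPKM of 8 members in each library (points, numbered by replicate) with group means (lines), each axis starting at 0. All but Gbp5 are highest in replicate 2 of Cort-/- among the NX/NG libraries and in replicate 3 of Cort+/+ among the OGD-R libraries. Gbp2, Gbp3, Gbp5 and Tgtp1 are above the range of Cort+/+ NX/NG in every Cort+/+ OGD-R library.

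The basal comparison asks whether lack of cortistatin changes these genes under NX/NG. The mean was higher in Cort-/- for 36 of the 37 members tested, but no member passed an FDR of at most 0.05 and the size of the difference rested on replicate 2. With limma and Benjamini-Hochberg adjustment over 15695 genes, 0 of 37 members and 0% of all genes were called, and the lowest adjusted p of a member was 0.355. The median log2 fold change was 0.44 over the members and 0.01 over all genes, and 51.5% of all genes were above 0. At an unadjusted p under 0.05, 3 members were higher (5.03% of all genes were) and 0 lower. The groups did not overlap, with Cort-/- higher, for 7 members and for 15.6% of all genes.

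The lowest p-values belonged to antiviral effectors. Oas1a, which makes the messenger that activates RNase L, was at 0.865, 1.17 and 1.61 RPKM in Cort+/+ and at 1.89 and 3.42 RPKM in Cort-/-, without overlap. Its log2 fold change was 1.05 (SE 0.35, 95% interval 0.16 to 1.93) with limma and an adjusted p of 0.355. Parp14, an ADP-ribosyltransferase, was at 7.65, 6.71 and 9.10 RPKM in Cort+/+ and at 9.75 and 13.8 in Cort-/-, a log2 fold change of 0.57 (SE 0.19). Neither difference survived adjustment over all genes. Cmpk2, a mitochondrial nucleotide kinase, was at 0.451, 0.347 and 0.729 RPKM in Cort+/+ and at 0.895 and 1.76 RPKM in Cort-/- (log2 fold change 1.21, SE 0.42, limma adjusted p 0.362).

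The next 3 genes by rank of p stood just above an unadjusted p of 0.05. Ifi47, an IRG, was at 10.4, 12.6 and 11.1 RPKM in Cort+/+ and at 12.7 and 15.9 in Cort-/- (log2 fold change 0.33, SE 0.13). Bst2 had a log2 fold change of 0.46 (SE 0.19), with Cort-/- replicate 1 inside the range of Cort+/+. Rtp4, a chaperone of receptors that also binds viral RNA, was at 1.49, 1.61 and 2.52 RPKM in Cort+/+ and at 2.39 and 6.57 RPKM in Cort-/- (log2 fold change 1.08, SE 0.47). For Ifitm3 the log2 fold change was -0.00 with a 95% interval of -0.35 to 0.35.

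Without Cort-/- NX/NG replicate 2, the median over the 35 members then tested was 0.027, with 19 higher. Without replicate 1 the median was 0.83, with 36 of 37 higher. Either fit leaves 1 Cort-/- library. Members higher at an unadjusted p under 0.05 numbered 0, 1 and 5 without Cort+/+ NX/NG replicate 1, 2 or 3. With limma-voom on reads recovered from the RPKM values 9 were higher at that threshold, with 0 of 37 called. In these libraries markers of mural and stromal cells also differed between genotypes: 6 pericyte markers summed to 7.59 and 10.2 RPKM in Cort-/- and 17.9 to 21.4 in Cort+/+, and 5 fibroblast markers to 93.6 and 62.8 RPKM against 157 to 224. The largest fibroblast term was Col1a1, at 67.5 and 46.5 RPKM in Cort-/- and 155, 166 and 113 in Cort+/+. The 3 fibroblast markers tested were lower in Cort-/-. Pdgfra, too low to be tested, went the other way, at 0.485 and 0.706 RPKM against 0.366, 0.319 and 0.320. The part of these markers in the result was not tested.

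**Figure D5:**
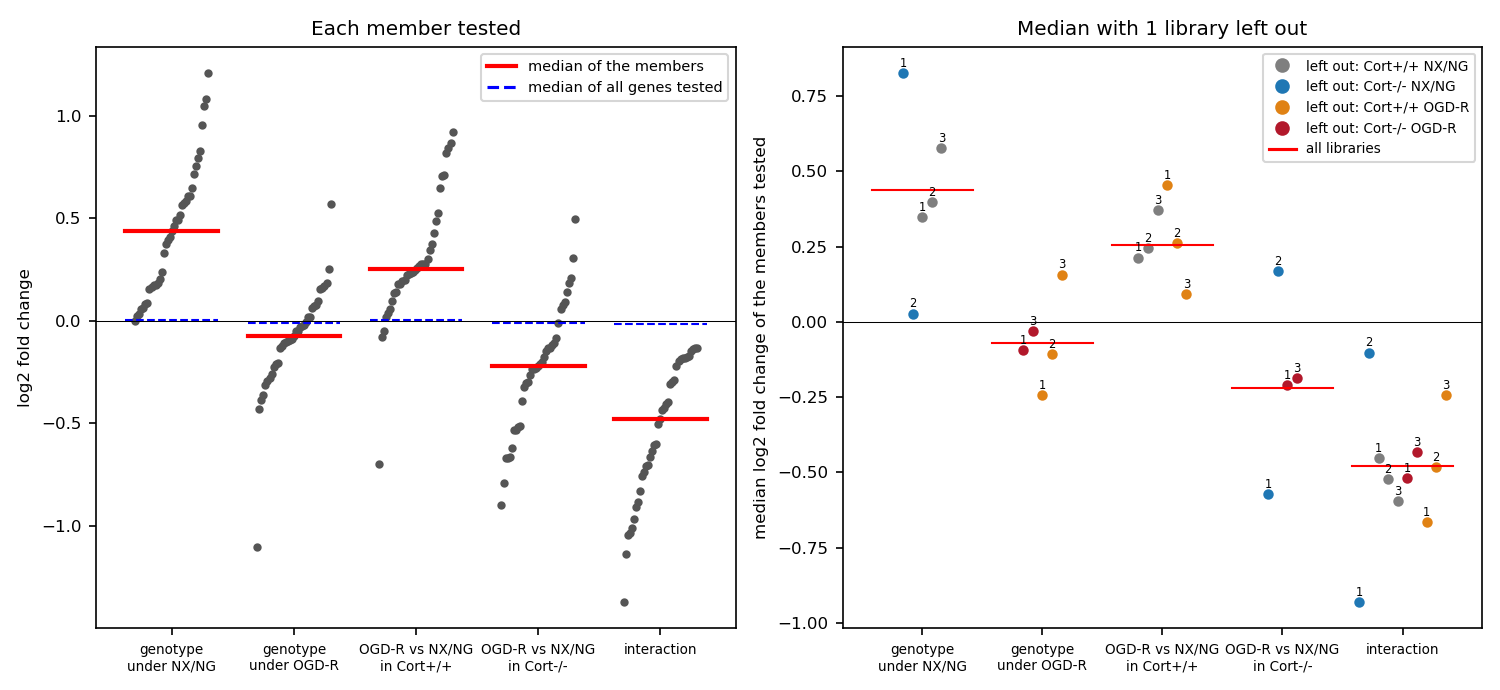
Left, the log2 fold change of each member tested in the 5 comparisons (points), with the median of the members (red line) and of all genes tested (blue dashed line). Right, the median of the members with 1 library left out at a time (points, coloured by group and numbered by replicate) beside that over all libraries (red line): for NX/NG it runs from 0.027 to 0.83.

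After OGD-R, the comparison of genotypes asks whether injured Cort-/- endothelium differs in these genes. The members differed little: 25 of 37 were lower in Cort-/- and 12 higher, with a median log2 fold change of -0.07, and 52.3% of all genes were below 0. With limma and Benjamini-Hochberg adjustment, 0 of 37 members and 0% of 15785 genes were called. At an unadjusted p under 0.05 there were 0 members in either direction, against 3.59% of all genes, and 0 with limma-voom. All 4 GBPs tested had lower means in Cort-/-, with log2 fold changes of -0.38 to -0.03.

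Gbp5, which promotes assembly of the NLRP3 inflammasome, was the only member whose groups did not overlap, lower in Cort-/-, as 8.39% of all genes were. It was at 1.83, 1.45 and 1.49 RPKM in Cort+/+ and at 1.19 and 1.23 RPKM in Cort-/-. Its log2 fold change was -0.36 (SE 0.19, 95% interval -0.84 to 0.12) with a limma adjusted p of 0.999. Gbp3 was at 5.02, 6.62 and 8.12 RPKM in Cort+/+ and at 5.04 and 4.83 RPKM in Cort-/- (log2 fold change -0.38, SE 0.21), so that the lowest Cort+/+ library lay inside the Cort-/- range.

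Tgtp1, an IRG, was at 1.57, 2.87 and 3.00 RPKM in Cort+/+ and at 2.18 and 1.39 RPKM in Cort-/- (log2 fold change -0.43, SE 0.34), its reads being divided uncertainly with Tgtp2. Ifi47 was at 11.6, 14.5 and 12.2 RPKM in Cort+/+ and at 15.2 and 13.2 RPKM in Cort-/- (0.16, SE 0.14). Rsad2, whose product viperin makes a chain-terminating nucleotide, was at 0.420, 0.270 and 0.888 RPKM in Cort+/+ and at 0.905 and 0.626 RPKM in Cort-/- (0.57, SE 0.53). The groups overlapped for these 3 genes. Ifitm1 was at 0.932, 1.48 and 2.68 RPKM in Cort+/+ and at 0.234 and 1.67 RPKM in Cort-/-, a log2 fold change of -1.10 (SE 0.79) that became 0.10 without Cort-/- replicate 1.

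The median of the members was 0.16 without Cort+/+ OGD-R replicate 3, with 27 of 36 higher, and -0.24 without Cort+/+ OGD-R replicate 1. With replicate 2 of Cort+/+, or replicate 1 or 3 of Cort-/-, left out it was -0.11, -0.09 and -0.03. A term for libraries low in ribosomal RNA gave a median of 0.002, with 19 of 37 members higher. Leaving out both of those libraries, so that 1 Cort-/- library remained, gave -0.28. Members lower at an unadjusted p under 0.05 numbered 3 without Cort+/+ OGD-R replicate 1 and 1 without Cort-/- OGD-R replicate 3. The epithelial markers also differed between these libraries, summing to 37.6 and 8.83 RPKM in Cort-/- and to 1.43 to 7.46 RPKM in Cort+/+. Most of the sum in Cort-/- replicate 3 was Krt18, at 8.67 RPKM. Krt8 was at 11.9 RPKM in Cort-/- replicate 1 but at 0.0749 in replicate 3, below every Cort+/+ library. The part of these markers in the result was not tested.

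The response of Cort+/+ endothelium to OGD-R was fitted after joint scaling of the libraries compared, whereas the jointly scaled levels given beside it come from a scaling of all 10 libraries. All 4 GBPs and all 6 IRGs tested had higher means after OGD-R, with median log2 fold changes of 0.60 and 0.40. The GBP median was the highest of the 10 classes, close to 0.57 over 2 genes of the 2-5A synthetase family and 0.50 over Isg15 and Usp18. Of the GBPs too low to be tested, Gbp6 was higher after OGD-R. Gbp4 was lower, going from 0.235 ± 0.0537 to 0.140 ± 0.0593 RPKM (jointly scaled, SD, n = 3 and 3). Of the 36 members tested, 33 were higher and 3 lower, and the median was 0.25, against 0.00 over all genes, of which 50.7% were above 0. With limma and Benjamini-Hochberg adjustment, 0 of 36 members and 0% of 15733 genes were called. At an unadjusted p under 0.05, 7 members were higher and 0 lower, against 3.96% of all genes that were higher, and limma-voom also gave 7. The groups did not overlap for those 7 members, all higher after OGD-R, and for 7.16% of all genes.

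Gbp3 had the lowest p-value. Its jointly scaled level was 3.83 ± 0.406 RPKM (SD, n = 3) under NX/NG and 6.42 ± 1.51 (n = 3) after OGD-R. That is a log2 fold change of 0.71 (SE 0.18, 95% interval 0.27 to 1.15), with a limma adjusted p of 0.746. In the deposited values the NX/NG libraries were at 3.30, 3.85 and 4.06 RPKM, below the 5.02 of the lowest OGD-R library. Gbp5 went from 0.795 ± 0.297 to 1.55 ± 0.204 RPKM (log2 fold change 0.92, SE 0.26), with NX/NG libraries at 0.602, 1.11 and 0.614 RPKM. Gbp2, which helps to break open pathogen vacuoles, went from 10.7 ± 0.803 to 15.2 ± 3.09 RPKM (0.49, SE 0.16). Its libraries were at 9.60, 11.2 and 10.5 RPKM under NX/NG and at 12.2, 16.1 and 18.5 RPKM after OGD-R.

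The other 4 genes of that group were 2 IRGs, a transcription factor and a membrane protein. Tgtp1 went from 1.28 ± 0.146 to 2.42 ± 0.772 RPKM (log2 fold change 0.82, SE 0.26), from libraries at 1.20, 1.14 and 1.41 RPKM under NX/NG. Irgm1 was at 12.05, 13.4 and 12.3 RPKM under NX/NG and at 14.5, 15.6 and 16.8 RPKM after OGD-R (0.24, SE 0.08). Irf1, itself an activator of GBP genes, was at 6.87, 6.66 and 7.11 RPKM under NX/NG and at 8.24, 8.50 and 9.30 RPKM after OGD-R (0.26, SE 0.08). Ifitm2 had a log2 fold change of 0.28 (SE 0.09). These are shifts of less than 2-fold in each gene, separated from the spread between replicates only before adjustment.

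Isg15 had a log2 fold change of 0.65 with an interval that included 0, and the lowest of its OGD-R libraries, at 3.63 RPKM, lay within its NX/NG range. The 3 IFIT genes had a median of 0.02, and Rsad2 had a log2 fold change of -0.70. The 3 lower members were Rsad2, Trim25 and Ifit2.

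Without Cort+/+ OGD-R replicate 3 the median of the members was 0.09, with 22 of 35 higher and 5 at an unadjusted p under 0.05. Without Cort+/+ OGD-R replicate 1, the library with little ribosomal RNA, the median was 0.45 and 19 were at that threshold. The count was 4 without NX/NG replicate 1 or 2 or OGD-R replicate 2.

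The response of Cort-/- endothelium compared 2 libraries with 2. Here 29 of 37 members were lower after OGD-R and 8 higher, with a median log2 fold change of -0.22, and 52.2% of all genes were below 0. With limma and Benjamini-Hochberg adjustment, 0 of 37 members and 0% of 15716 genes were called. At an unadjusted p under 0.05, 1 member was lower, against 1.77% of all genes, and limma-voom also gave 1. The groups did not overlap for 3 members that were lower, against 17.6% of all genes, and for 1 that was higher, against 16.7%, so these counts lay below the background.

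Rsad2 had the lowest p-value, with Cort-/- libraries at 1.38 and 1.43 RPKM under NX/NG and at 0.905 and 0.626 RPKM after OGD-R. Its log2 fold change was -0.90 (SE 0.28, 95% interval -1.64 to -0.15) with a limma adjusted p of 0.939. Oas1a was at 1.89 and 3.42 RPKM under NX/NG and at 1.76 and 1.67 RPKM after OGD-R (-0.62, SE 0.31), without overlap. Trim25 was at 10.3 and 11.8 RPKM and then at 9.99 and 10.1 RPKM (-0.21, SE 0.11), also without overlap after joint scaling.

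Cmpk2 was at 0.895 and 1.76 RPKM under NX/NG and at 0.962 and 0.546 RPKM after OGD-R (log2 fold change -0.79, SE 0.46). Ifih1, which encodes the RNA sensor MDA5, was at 1.92 and 3.28 RPKM and then at 2.12 and 1.59 RPKM (-0.51, SE 0.32), and the groups of both genes overlapped. Gbp5 was the member that did not overlap in the other direction, at 0.634 and 0.960 RPKM under NX/NG and 1.19 and 1.23 RPKM after OGD-R (0.50, SE 0.30). Without Cort-/- NX/NG replicate 2 the median of the members turned to 0.17, with 28 of 35 higher, and without replicate 1 it was -0.57, with 14 members lower at an unadjusted p under 0.05. The count of lower members was 2 without Cort-/- OGD-R replicate 3. In deposited RPKM, pericyte markers summed to 15.3 and 17.6 and fibroblast markers to 161 and 206 in these OGD-R libraries, above both NX/NG libraries. Of 3 pericyte markers tested, 2 were higher after OGD-R and 1 lower, and of 4 fibroblast markers 3 were higher and 1 lower. Their part in the result was not tested.

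The interaction of genotype and environment asks whether the response to OGD-R differs between genotypes. It uses the same libraries as the 4 comparisons above, which share libraries among themselves, and is no independent evidence beside them. All 37 members tested had a negative estimate, that is, a smaller rise or larger fall in Cort-/- than in Cort+/+, against 53.2% of all genes. With limma and Benjamini-Hochberg adjustment, 0 of 37 members and 0% of 15714 genes were called. At an unadjusted p under 0.05 there were 0 members, against 1.88% of all genes in either direction, and limma-voom gave 1. The median estimate was -0.48 over the members and -0.01 over all genes.

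The lowest p-value was that of Gbp3, with an estimate of -0.91 on the log2 scale (SE 0.42, 95% interval -1.88 to 0.06, limma adjusted p 1.00). In Cort+/+ it went from 3.83 ± 0.406 to 6.42 ± 1.51 RPKM (n = 3 and 3), and in Cort-/- from 5.92 ± 3.03 to 4.81 ± 0.148 RPKM (n = 2 and 2). The Cort-/- NX/NG libraries were 3.67 and 7.83 RPKM, so the baseline itself was spread widely. Rtp4 had an estimate of -1.37 (SE 0.75), Cmpk2 -0.96 (SE 0.60), Oas1a -0.88 (SE 0.56), Ifih1 -0.70 (SE 0.47) and Parp14 -0.48 (SE 0.33). Rtp4 was at 1.81, 2.92 and 6.12 RPKM in Cort+/+ OGD-R and at 2.52 and 2.72 RPKM in Cort-/- OGD-R. Ifih1 was at 1.55, 1.29 and 2.11 RPKM in Cort+/+ NX/NG and at 1.43, 1.87 and 2.79 RPKM in Cort+/+ OGD-R. Parp14 was at 8.17, 9.97 and 11.3 RPKM in Cort+/+ OGD-R and at 12.9 and 8.42 RPKM in Cort-/- OGD-R.

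The median estimate depended on the libraries in which most members were highest. It was -0.10 without Cort-/- NX/NG replicate 2, with 7 of 35 positive, -0.24 without Cort+/+ OGD-R replicate 3, and -0.93 without Cort-/- NX/NG replicate 1. Members at an unadjusted p under 0.05, all negative, numbered 8 without Cort-/- NX/NG replicate 1, 4 without Cort+/+ OGD-R replicate 1 and 1 without either Cort-/- OGD-R replicate. With both high libraries left out, the median was 0.061 and 22 of 35 estimates were positive. Markers of other cell types had mostly positive estimates in the same fit, with a median of 0.76 over 3 pericyte markers tested (2 at an unadjusted p under 0.05), 0.91 over 3 fibroblast markers (2 at that threshold) and 3.34 over 3 epithelial markers (0 at that threshold). Of the epithelial markers, Krt8 was at 18.7 RPKM in Cort+/+ NX/NG replicate 2 and 11.9 in Cort-/- OGD-R replicate 1, and at most 2.57 in any other library. The part of these markers in the result was not tested.

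Other genes of the interferon pathway were examined as lists set by general knowledge. The receptors Ifnar1, Ifnar2, Ifngr1, Ifngr2 and Il10rb were expressed and tested, 5 of the 6 listed, and 0 had an unadjusted p under 0.05 in any of the 5 comparisons. Ifngr1, the ligand-binding chain for interferon gamma and the highest of them, was at 21.3, 21.2 and 25.8 RPKM in Cort+/+ NX/NG, 22.5 and 31.9 in Cort-/- NX/NG, 24.7, 30.3 and 26.5 in Cort+/+ OGD-R, and 32.0 and 26.1 in Cort-/- OGD-R. Il10rb, a shared chain of receptors for interferon lambda, had the lowest p of the receptors under NX/NG, with a log2 fold change of 0.21. For the partner chain Ifnlr1 the levels were at most 0.16 RPKM.

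Of the kinases and factors below the receptors, Jak1 was the highest and lay between 32.6 and 37.4 RPKM in all libraries. No gene of this list had an unadjusted p under 0.05 in any of the 5 comparisons. Among 12 sensors and adaptors tested, 2 were higher in Cort-/- under NX/NG at that threshold, as 5.03% of all genes were. They were led by Tlr3, an endosomal sensor of double-stranded RNA, with a log2 fold change of 0.41. Ddx58, which encodes the RNA sensor RIG-I, was the highest of that list. Among 8 negative regulators tested, of which Ptpn11 was the highest, Adar, an RNA editing enzyme, had the lowest p in that comparison, with a log2 fold change of 0.30. Ptpn2, a phosphatase of JAK1, had the lowest p between genotypes after OGD-R (log2 fold change -0.39), and Trex1, a DNase, that in Cort+/+ between environments (0.28). None of these passed an FDR of 0.05.

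A further list held 52 other interferon-stimulated genes. Under NX/NG 29 of 34 tested were higher in Cort-/-, against 51.5% of all genes, with a median of 0.39. At an unadjusted p under 0.05, 7 were higher, against 5.03% of all genes. Replicate 2 of Cort-/- was the highest NX/NG library in 29 of the 34. After OGD-R 24 of 33 were higher in Cort-/-, with a median of 0.09, whereas 52.3% of all genes were lower. Of the 33, 1 was higher at that threshold, which 3.59% of all genes passed in either direction. In Cort+/+, 23 of 32 were higher after OGD-R with a median of 0.10, against 50.7% of all genes. In Cort-/- 28 of 33 were lower with a median of -0.18, against 52.2% of all genes. Lgals9, which encodes galectin-9, was the highest of the list, at 31.8, 28.7 and 36.8 RPKM in Cort+/+ NX/NG, 34.5 and 47.5 in Cort-/- NX/NG, 27.6, 36.9 and 44.8 in Cort+/+ OGD-R, and 37.2 and 37.8 in Cort-/- OGD-R. Slfn9, of the Schlafen family, had the lowest p under NX/NG, at 7.08, 9.11 and 8.76 RPKM in Cort+/+ and 11.97 and 12.02 RPKM in Cort-/- (log2 fold change 0.53). It had the list's lowest p after OGD-R too, at 9.39, 7.67 and 9.40 RPKM in Cort+/+ and 10.8 and 11.5 RPKM in Cort-/- (0.34). Slfn9 did not overlap between genotypes in either environment. Under NX/NG the same held, with Cort-/- higher, for 15.6% of all genes, and the share in that direction after OGD-R was not computed. Unlike Isg15, Slfn9 was at nearly the same level in the pair of Cort-/- NX/NG libraries, but it was picked for its low p. Between environments the lowest p of the list belonged to Lgals3bp in Cort+/+ (log2 fold change -0.24) and to Gvin1 in Cort-/- (-0.69). Slfn9 too failed adjustment, with a limma adjusted p of 0.273 under NX/NG and 0.999 after OGD-R.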

How the data were processed

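RNA-seq of primary BECs covered 12 labelled samples, of which 10 had a column in the deposited tables, and each was grouped by its label. The RPKM values were deposited by the authors, who made them with their reanalyzerGSE pipeline so as to keep low expressed genes and scaled the 5 libraries of each environment on their own. The submitters' processing notes name edgeR, and the aligner, counter, genome build and versions are not given in the sources used here. The labels and the methods of the study name different library kits, RNA inputs and read lengths. Other deposited columns hold the authors' fold changes, mean abundances, p-values, FDRs and calls, and 10 columns sort the genes of each library into expression categories; none of these was used.

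Multiplied by gene length, 100% of the RPKM values came out as whole reads (tolerance 0.05), so reads could be recovered. At 12386048 to 12390428 reads on genes per library, intervals on read ratios cover counting error only. Each comparison was fitted with limma 3.58.1 (trended empirical Bayes, R 4.3.3) on log2(RPKM + 0.1), keeping genes whose mean reached 0.5 RPKM in the libraries compared. This scale understates the change of low genes. Benjamini-Hochberg adjustment ran over all genes tested, and the FDR threshold was 0.05. For comparisons across environments the reads of 27321 genes in both tables were scaled by trimmed means of M values over the libraries of each fit, and RPKM was computed anew. Jointly scaled levels were computed in the same way over all 10 libraries. The fit was tested on simulated data. Within a genotype or environment all mapped libraries were used, Cort+/+ OGD-R replicate 1 among them, although it and Cort-/- OGD-R replicate 3 are low in ribosomal RNA, since leaving out only the former would tie that difference to genotype.

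The genes chosen to be given by library were the highest of each class by mean RPKM and, in each comparison, the 6 members with the lowest unadjusted p. Of these, Ifit3 is given only by its mean, and several, such as Irf1, Irgm1 and Trim25, only in some of the groups. From each pathway list the genes named were the one with the highest level and those with the lowest p in a comparison, some without their values by library. Isg15 and Irgm1 in Cort+/+, Usp18, Irf7, Dhx58, Ifi44 and Ifit2 were added after their values were seen. A gene of the pathway lists is not reported here. The 45 members, the 10 classes and the lists of pathway and marker genes were chosen with earlier results of these data known. Transcript words came from GENCODE vM21. Figures and summaries were made with Python 3.11.15, pandas 2.3.3 and matplotlib 3.10.9. Alternatives were limma-voom on recovered reads, a pseudocount of 1, no filter or a stricter one (1 RPKM in 2 libraries), quantile normalization, a replicate block, a fit over all groups, a covariate for low ribosomal RNA, other scalings across environments and each library left out in turn. Leaving out both libraries low in ribosomal RNA, and leaving out together the libraries in which most members were highest, were added after seeing the data.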

Additional observations from a re-analysis of the deposited data

How the results depend on the processing

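No member was called in any alternative of the 5 comparisons, by limma or by limma-voom. The number of all genes called, 0 with all settings as reported, was 54 for genotype under NX/NG with limma-voom and 3 with all groups in one fit. For genotype under OGD-R it was 2 with a pseudocount of 1, 5 with all groups in one fit and 1 with limma-voom. For Cort+/+ between environments it was 9 with no filter, for Cort-/- 1 with all groups in one fit, and for the interaction 3 with no filter and 0 to 2 with single libraries left out. The cause was not tested. With single libraries left out, the median of the members ranged from 0.027 to 0.83 for genotype under NX/NG, from -0.57 to 0.17 for Cort-/- between environments and from -0.93 to -0.10 for the interaction, which was 0.061 without either library that stood highest. For Ifitm1 after OGD-R, -1.10 with all libraries, the range was -2.31 to 0.10, the last without Cort-/- replicate 1. With the replicate number as a block the medians were 0.58, -0.11, 0.25 and -0.55, and the members at an unadjusted p under 0.05 were 8, 0, 11 and 3 for the same order of comparisons, without Cort-/- between environments, whose groups share only 1 number. Deviations of same-numbered libraries from their group means had correlations from -0.53 to 0.19 across 13789 genes. The 2 libraries of a Cort-/- group deviate from their mean as mirror images, so correlations with them cannot show or exclude a pairing. In Cort+/+ between environments, with 3 libraries each, the values were -0.06, -0.07 and 0.19. The block was kept as an alternative only. Depth limits the 8 untested members, of which Oas2 had 7 reads in all.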

Other observations

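Oasl1, an oligoadenylate synthetase-like protein that is induced with Irf7, was not tested because its mean was under 0.5 RPKM. It was at 0.125, 0.117 and 0.266 RPKM in Cort+/+ NX/NG and at 0.559 and 0.483 RPKM in Cort-/- NX/NG, and at 0.223, 0.242 and 0.289 RPKM in Cort+/+ OGD-R and 0.327 and 0.393 RPKM in Cort-/- OGD-R. The genotypes did not overlap in either environment. Under NX/NG the same held, with Cort-/- higher, for 15.6% of all genes tested, and the share in that direction after OGD-R was not computed. These levels rest on 98 reads over 10 libraries, the gene was singled out after its values were seen, and no test was made.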
